A study of Mus musculus with 24 samples.

Results

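The constant regions of immunoglobulins and the genes that mark antibody-secreting cells were followed in 4 tissues of Trex1-KO mice. The set held 10 genes, chosen by symbol from the 54532 gene identifiers that every sample listed. They were the heavy chain constant genes *Ighm*, *Ighg3*, *Ighg1*, *Ighg2b*, *Ighg2c* and *Igha*, the light chain constant genes *Igkc* and *Iglc2*, *Jchain* and *Mzb1*. Trex1 is a DNA exonuclease, and mice that lack it develop interferon-driven inflammation through the DNA sensor cGAS and its adaptor STING. Heart, stomach, muscle and tongue were each profiled by polyA+ RNA-Seq in 3 samples of mice given SN-011, a STING antagonist, and in 3 control samples, 24 samples in all. Every animal carried the Trex1 knockout, so no sample was of wild type. Controls are labelled untreated, and the methods describe an injection of the vehicle, Tween 80 in PBS, so they are called vehicle here. The labels give SN-011 at 5 mg/kg, 3 times per week for 4 weeks, whereas the methods give mice of 1 month of age another dose, every day and for another time, so dose, schedule and duration are uncertain.

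B cells make antibody from a heavy and a light chain, each with a variable and a constant part. A naive B cell reads *Ighm* and *Ighd* of the constant genes, which give IgM and IgD. After class switch recombination the variable region is joined to a gene further along, to give an IgG subclass, IgE or IgA. A plasma cell is the secreting end state of this lineage. It makes very large amounts of constant region RNA, together with J chain, which links IgA into dimers and IgM into pentamers, and Mzb1, a chaperone of the endoplasmic reticulum. Mucosal plasma cells of the stomach and gut make mainly IgA, which the receptor encoded by *Pigr* carries across the epithelium. C57BL/6 mice have *Ighg2c* in place of *Ighg2a*.

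The heavy chain constant genes lie on the minus strand of chromosome 12 (GRCm38), from *Ighm* at chr12:113418558-113422730 through *Ighg3* at chr12:113356224-113361232, *Ighg1* at chr12:113325240-113330523, *Ighg2b* at chr12:113302965-113307933 and *Ighg2c* at chr12:113285325-113288932 to *Igha* at chr12:113254830-113260236. *Igkc* lies on chromosome 6 and *Jchain* on chromosome 5. The IgG genes are told apart most easily at the hinge, the flexible piece that joins the arms of the antibody to its stem and holds the heavy chains together through cysteines. The 4 hinge exons, exon 2 of each gene, are shown because the IgG subclass values below rest on reads being assigned to the right gene. Capitals mark cysteine codons in frame.
*Ighg3*: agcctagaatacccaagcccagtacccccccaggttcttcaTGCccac
*Ighg1*: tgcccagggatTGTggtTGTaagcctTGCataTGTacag
*Ighg2b*: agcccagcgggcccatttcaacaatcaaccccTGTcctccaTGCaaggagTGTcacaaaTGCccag
*Ighg2c*: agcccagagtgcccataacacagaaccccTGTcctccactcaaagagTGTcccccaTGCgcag
These exons run at chr12:113360529-113360576, chr12:113329844-113329882, chr12:113307261-113307326 and chr12:113288263-113288325. They are 48, 39, 66 and 63 bases long and hold 1, 4, 4 and 3 such codons. Over the whole secreted transcripts, *Ighg2b* and *Ighg2c* were the closest pair, with 86.4% identity over 1111 aligned bases and a longest shared run of 78 bases. The other 5 pairs had 74.7% to 77.0% identity and shared runs of 28 to 41 bases. *Iglc2* and *Iglc3* had 95.4% identity and a shared run of 79 bases, which is shorter than the reads that the methods describe. Reads that fit both would not count as unique. How many did was not counted, so the *Iglc2* values are uncertain. *Iglc2* also overlaps *Iglj2* and *Mzb1* overlaps *Spata24* on the same strand.

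J chain attaches to a cysteine next to the last residue of the secreted IgM and IgA heavy chains. The last 60 coding bases of both, with *Ighg1* beside them, are shown because *Jchain* is read below against these isotypes. Capitals mark a cysteine codon in the next-to-last position.
*Ighm*: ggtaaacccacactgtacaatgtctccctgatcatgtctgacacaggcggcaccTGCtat
*Igha*: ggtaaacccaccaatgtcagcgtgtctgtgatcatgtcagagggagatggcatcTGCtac
*Ighg1*: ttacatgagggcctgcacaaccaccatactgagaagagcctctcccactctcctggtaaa
They lie at chr12:113420870-113420929, chr12:113258771-113258830 and chr12:113328979-113329038. IgM and IgA end in this codon and one more, while the *Ighg1* transcript has no cysteine codon there.

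Total counts were 14253416 to 18443329 read pairs per sample, and 3 counts, taken as the floor of detection, were 0.130 to 0.336 CPM (counts scaled to a common library size after TMM normalization), which covers counting error only. Summed markers of each labelled tissue were highest in that tissue. Heart muscle genes reached 17264 to 30254 CPM in the heart, skeletal muscle genes 147349 to 183743 CPM in the muscle, gastric genes 3554 to 48256 CPM in the stomach and squamous keratins 10498 to 46054 CPM in the tongue. Several libraries stood apart. Vehicle replicate 1 of every tissue had RNA of a female mouse and every other sample that of a male. Only 11546 genes were seen in muscle SN-011 replicate 2, and 19798 or more elsewhere. The 5 gastric markers *Atp4a*, *Atp4b*, *Tff1*, *Muc5ac* and *Gkn1* summed to 61.8 to 819 CPM in vehicle replicates 2 and 3 of the heart, muscle and tongue, against 8.11 to 36.5 CPM in vehicle replicate 1 and 0 to 18.5 CPM in the SN-011 samples of these tissues.

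Constant region RNA was most abundant in the stomach and least in the tongue. All immunoglobulin gene segments together took 0.227% to 0.903% of stomach counts, 0.0444% to 0.222% of heart counts, 0.0120% to 0.0162% of muscle counts and 0.00233% to 0.00614% of tongue counts. Genes are compared with each other as CPM per kilobase of exon. *Igkc*, the kappa light chain, stood first in the heart, stomach and tongue, and second in the muscle.

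In the stomach of vehicle mice, the order of means per kilobase was *Igkc* with 4199 ± 1942 (SD, n = 3), *Igha* with 1034 ± 286, *Jchain* with 142 ± 63.7, *Iglc2* with 132 ± 89.7, *Ighm* with 83.2 ± 48.7, *Ighg2c* with 23.5 ± 9.59, *Ighg2b* with 8.52 ± 4.07, *Mzb1* with 6.70 ± 1.60, *Ighg1* with 3.73 ± 2.97 and *Ighg3* with 0.955 ± 0.511. *Jchain*, *Iglc2* and *Ighm* lay within their spread of each other, as did *Ighg2b* and *Mzb1*, *Mzb1* and *Ighg1*, and *Ighg1* and *Ighg3*. In the heart the order was *Igkc* with 556 ± 277, *Ighm* with 114 ± 133, *Igha* with 91.8 ± 29.1, *Ighg2c* with 42.2 ± 28.8, *Iglc2* with 23.6 ± 25.1, *Jchain* with 22.0 ± 8.64, *Ighg2b* with 10.003 ± 6.90, *Mzb1* with 5.40 ± 4.69, *Ighg1* with 5.29 ± 5.87 and *Ighg3* with 0.765 ± 0.899. Apart from the first place of *Igkc*, neighbours in this order lay within their spread, and *Ighm* had an SD larger than its mean.

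In the muscle *Ighm* had 60.6 ± 26.3 CPM per kilobase and *Igkc* 59.1 ± 13.6, followed by *Igha* with 14.9 ± 6.35. The other 7 members lay at 0.0249 to 3.53. In the tongue *Igkc* had 13.4 ± 8.63, *Ighm* 7.81 ± 2.23 and *Igha* 3.63 ± 3.77, and the other 7 lay at 0.00630 to 1.12. *Ighg3* had at most 2 counts in any sample of either tissue, under the floor of 3 counts, and *Ighg1* at most 7.

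**Figure D1:**
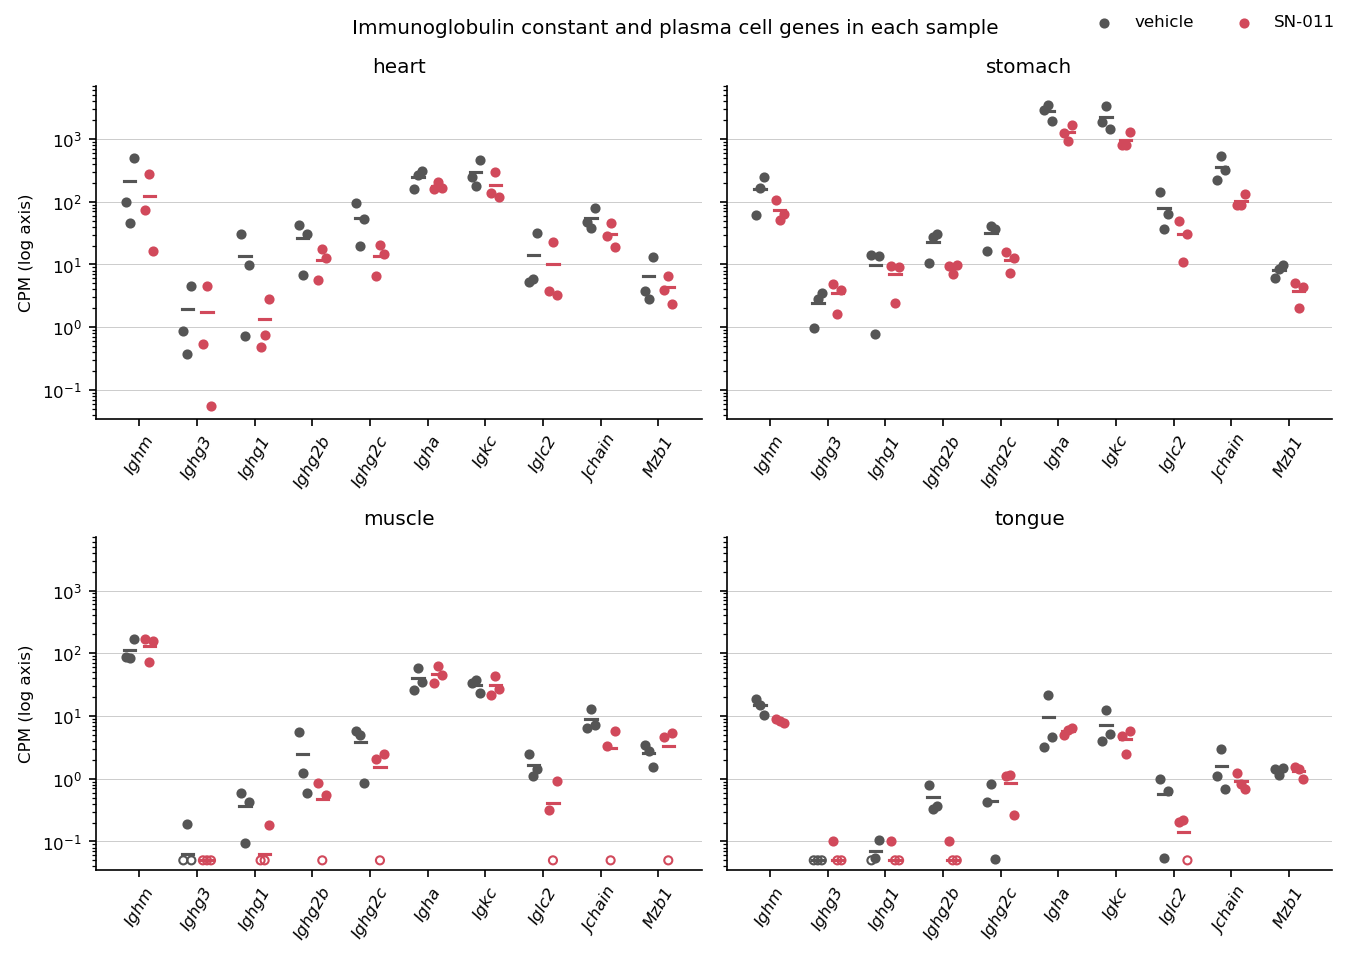
CPM on a log axis of the 10 genes in the 3 vehicle samples (grey) and 3 SN-011 samples (red) of each tissue, with a bar at each mean; open circles at the bottom are samples under 0.05 CPM. *Igha* and *Igkc* reach 919 to 3442 and 789 to 3399 CPM in the stomach and no more than 21.3 and 12.4 CPM in the tongue.

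The tissues were compared in vehicle mice with edgeR (quasi-likelihood), and p-values were adjusted over 18301 genes. Of the 10 members, 10 were higher in the stomach than in the tongue (18.1% of all genes tested were), 9 were higher in the stomach than in the muscle (28.6%), 10 were higher in the heart than in the tongue (15.9%), 8 were higher in the heart than in the muscle (19.9%), 4 were lower in the heart than in the stomach (22.5%) and 5 were lower in the tongue than in the muscle (21.3%). Among the members, no gene was called in the opposite direction in these 6 comparisons.

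Between stomach and heart, *Igha* passed the test and the other heavy chain genes did not. *Igha* was lower in the heart by a log2 difference of -3.45 ± 0.66 (SE, edgeR adjusted p = 0.00126), *Igkc* by -2.87 ± 0.52 (edgeR adjusted p = 0.000866), *Jchain* by -2.65 ± 0.50 (edgeR adjusted p = 0.00115) and *Iglc2* by -2.44 ± 0.77 (edgeR adjusted p = 0.0215). For *Ighm* the difference was 0.50 ± 0.74, for *Ighg1* 0.53 ± 1.02, for *Ighg2b* 0.27 ± 0.73, for *Ighg2c* 0.88 ± 0.68, for *Ighg3* -0.27 ± 0.90 and for *Mzb1* -0.27 ± 0.53, with edgeR adjusted p from 0.311 to 0.828. *Igha*, *Jchain* and the light chains thus passed the test, and the IgM and IgG genes and *Mzb1* did not. These differences between tissues were not compared between genes.

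*Ighm* was the exception among the genes of the muscle. Stomach and muscle differed in *Igkc* by 6.08 ± 0.60 (edgeR adjusted p = 6.23e-06), in *Igha* by 6.05 ± 0.75 (edgeR adjusted p = 3.45e-05) and in *Jchain* by 5.26 ± 0.57 (edgeR adjusted p = 1.21e-05), whereas the difference in *Ighm* was 0.40 ± 0.74 (edgeR adjusted p = 0.673). Heart and muscle differed in *Ighm* by 0.90 ± 0.74 (edgeR adjusted p = 0.369). *Mzb1* did not pass the test between heart and muscle either (1.31 ± 0.55, edgeR adjusted p = 0.0806). Counts of *Ighm* per count of *Igkc* ran from 1.63 to 7.85 in muscle samples and from 1.22 to 4.75 in tongue samples, against 0.138 to 1.09 in the heart and 0.0330 to 0.171 in the stomach. *Ighm* and B cell genes were not in step in the muscle. *Cd79a*, part of the B cell receptor, had 60, 24 and 18 counts in the vehicle muscle samples and 3, 0 and 2 in the SN-011 samples, beside 1025, 900 and 2024 counts of *Ighm* with vehicle and 1578, 644 and 1702 with SN-011.

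Muscle values depended on the scaling. With library size in place of TMM normalization, the tongue and muscle comparison called 3 members and not 5, and the heart and muscle comparison called 9 and not 8. The calls over all 18301 genes moved as well. Those lower in the tongue than in the muscle were 1251 and not 3899, and those higher in the heart than in the muscle 8442 and not 3642. Without the 4 vehicle samples from females the 6 counts were 10, 9, 10, 6, 3 and 4 in the order given above. Of all 18673 genes then tested, 3082, 4855, 2783, 3233, 3633 and 4040 were called in the same directions.

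Isotype use was read as each gene's share of the heavy chain constant reads per kilobase (*Ighm*, *Ighd*, the 4 IgG genes, *Ighe* and *Igha*), as a description with no test. The stomach was dominated by IgA. *Igha* took 94.6%, 89.4% and 76.7% of the heavy chain signal in the vehicle samples and 82.5%, 87.9% and 90.6% in the SN-011 samples. *Ighm* took 2.85%, 6.02% and 13.7% with vehicle and 9.70%, 7.03% and 4.81% with SN-011, and the IgG genes together 1.95%, 2.91% and 4.85% with vehicle and 3.64%, 2.46% and 2.64% with SN-011. The groups overlapped in all 3 classes, and the mean share of *Igha* was 86.9% ± 9.21 with vehicle and 87.0% ± 4.09 with SN-011.

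The heart was mixed and varied most. Its IgG share was 46.2% in vehicle replicate 1, 12.5% in replicate 2 and 11.5% in replicate 3, and 6.73%, 8.95% and 18.9% in the SN-011 samples. *Igha* took 27.6%, 69.2% and 23.8% with vehicle and 54.5%, 29.2% and 70.7% with SN-011. *Ighm* took 24.2%, 16.9% and 54.3% with vehicle and 35.4%, 55.3% and 9.95% with SN-011. Each class thus led in some heart sample of the vehicle group: IgG in replicate 1, the only female, IgA in replicate 2, which carried the most gastric RNA, and IgM in replicate 3, which had the most B cell RNA. Summed counts of the B cell genes *Ms4a1*, *Cd79a*, *Cd79b*, *Cd22* and *Pax5* reached 314 CPM in vehicle replicate 3 and 119 CPM in SN-011 replicate 2, the samples with the largest IgM shares, against 11.1 to 45.5 CPM in the other 4 heart samples.

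In the muscle, *Ighm* took 61.7% to 86.4% and *Igha* 12.005% to 38.3%, and in the tongue *Ighm* took 46.3% to 79.2% and *Igha* 9.52% to 45.9%. These shares rest on few reads, 1210 to 2461 heavy chain counts per muscle sample and 275 to 700 per tongue sample, against 18627 to 71273 in the stomach. The shares also rest on the length used. The exons of *Igha* sum to 2668 bases and those of *Ighm* to 1886, but their secreted transcripts have 1100 and 1493. Divided by the latter, over *Ighm*, the IgG genes and *Igha*, *Igha* took 20.8% to 54.4% in muscle samples, 17.4% to 63.2% in tongue samples, 39.7% to 81.3% in heart samples and 88.0% to 97.1% in stomach samples. *Igha* then exceeded *Ighm* in muscle SN-011 replicate 2, tongue vehicle replicate 2, tongue SN-011 replicate 3 and heart SN-011 replicate 2, where the order was the opposite by exon length.

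**Figure D2:**
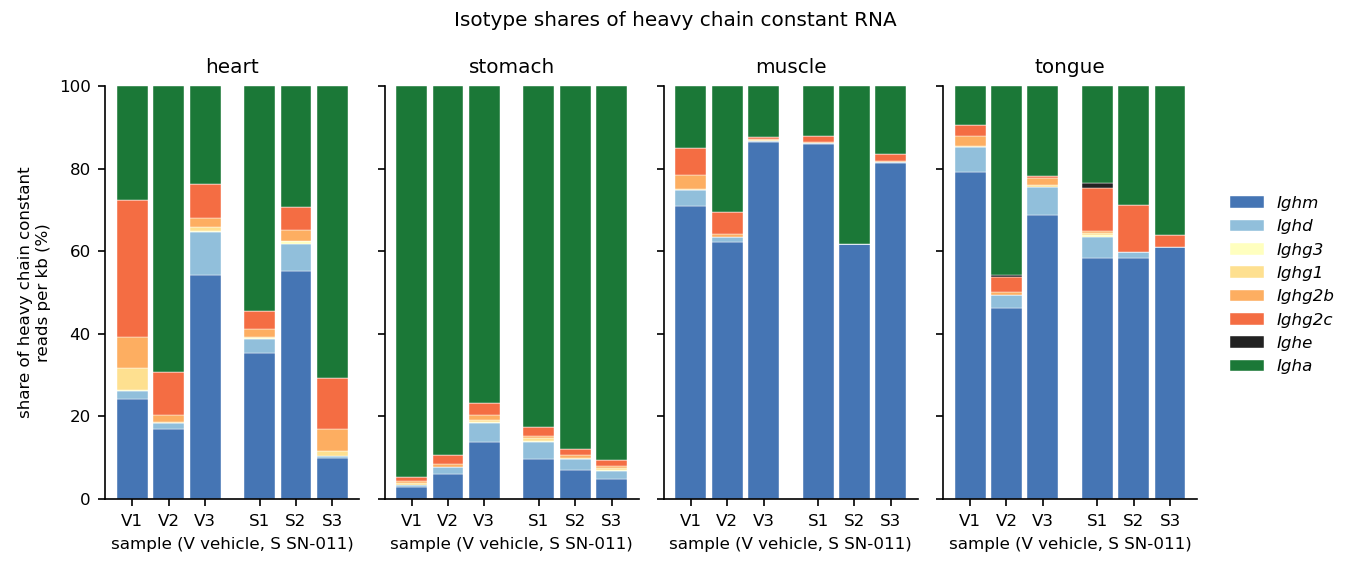
Share of each heavy chain constant gene (percent of summed reads per kilobase of exon) in every sample, with vehicle replicates V1 to V3 left and SN-011 replicates S1 to S3 right in each tissue. *Igha* fills 76.7% to 94.6% of each stomach bar, *Ighm* the larger part of each muscle bar by exon length, and heart bars differ widely within both groups.

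Among the IgG genes, *Ighg2c* led in the heart and stomach. It took 69.9% to 83.4% of IgG reads per kilobase in vehicle hearts and 63.5% to 66.5% with SN-011, and *Ighg2b* 14.1% to 20.1% and 27.6% to 28.2%. Both sets of heart values lay apart, *Ighg2c* lower and *Ighg2b* higher with SN-011, without a test. In the stomach *Ighg2c* took 56.1% to 72.7% with vehicle and 51.9% to 56.7% with SN-011, which overlapped. *Ighg3*, an IgG made largely in T cell-independent responses, took 1.72%, 2.63% and 3.00% of stomach IgG with vehicle and 9.20%, 6.70% and 8.55% with SN-011, groups that did not overlap, from 14 to 102 counts per sample. The annotated exon length of *Ighg2c* is 1326 bases and that of the other IgG genes 2512 to 2678 bases, so its share per kilobase is raised against the other IgG genes. Of IgG counts not divided by length, it still had more than *Ighg2b* in each of the 12 heart and stomach samples, from 134 against 128 to 1950 against 877.

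Kappa light chains prevailed throughout. *Igkc* took 87.5% to 97.8% of the summed reads per kilobase of *Igkc*, *Iglc1*, *Iglc2* and *Iglc3* in the heart and stomach, with 94.6% ± 2.76 in vehicle stomachs and 95.1% ± 2.93 in SN-011 stomachs, and with 91.7% ± 3.77 and 90.6% ± 2.68 in the heart. *Jchain* per 100 counts of *Igha* was 7.59, 15.5 and 16.6 in vehicle stomachs and 6.92, 9.61 and 8.05 in SN-011 stomachs, and 14.7 to 29.8 and 11.5 to 21.7 in the heart. These ranges overlapped.

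SN-011 was compared with vehicle within each tissue. No member passed an adjusted p of 0.05 by edgeR's quasi-likelihood test in any tissue. In bulk RNA, fewer cells of a type and less RNA per cell cannot be told apart.

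In the stomach, 9 of the 10 members had a negative log2 fold change, with a median of -1.12 beside 0.00 over all 17031 genes tested. *Igha*, *Igkc*, *Ighg2b*, *Ighg2c*, *Jchain* and *Mzb1* had a lower CPM in every SN-011 sample than in every vehicle sample. These were 6 of 10, where 16.1% of all genes tested showed this. The same 6 genes had an unadjusted p under 0.05, as did 24.6% of all genes. Both results depended on TMM normalization. With library size in its place, 3 members had an unadjusted p under 0.05, as did 3793 of 17031 genes. *Ighg2b*, *Ighg2c* and *Mzb1* had more raw counts in SN-011 replicate 1 than in vehicle replicate 1, from a smaller total. The count at an adjusted p under 0.05 was 0 (0.0% of all genes), 5 with DESeq2 (*Igha*, *Igkc*, *Ighg2b*, *Ighg2c* and *Jchain*, where 14.0% of all genes were called) and 3 with edgeR's exact test (*Ighg2b*, *Ighg2c* and *Jchain*, 10.8%).

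*Jchain* had the largest difference. It had 3179, 10225 and 7437 counts in the vehicle samples and 1848, 1631 and 2683 in the SN-011 samples, or 358 ± 160 and 103 ± 26.8 CPM. All SN-011 values lay below the vehicle values, with a log2 fold change of -1.76 ± 0.40 (edgeR adjusted p = 0.0753, range over the alternatives 0.000363 to 0.283). *Igha* had 41904, 65899 and 44770 counts with vehicle and 26709, 16974 and 33314 with SN-011, or 2759 ± 764 and 1285 ± 375 CPM. Its groups did not overlap either, and the log2 fold change was -1.06 ± 0.46 (edgeR adjusted p = 0.203). *Igkc* had 27049, 65083 and 33100 counts with vehicle and 16594, 15034 and 26255 with SN-011 (log2 fold change -1.16 ± 0.49, edgeR adjusted p = 0.191).

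The IgG genes of the stomach were not alike. *Ighg2c* had 241, 774 and 844 counts with vehicle and 332, 134 and 250 with SN-011, and *Ighg2b* 151, 516 and 719 against 198, 128 and 196. In CPM after TMM normalization both sets lay apart, with the same log2 fold change of -1.37 ± 0.42 (edgeR adjusted p = 0.110 and 0.113). Library size alone did not set them apart. SN-011 replicate 1 had more counts of both genes than vehicle replicate 1, from a smaller total (14569890 against 16187991). *Ighg3* had 14, 53 and 80 counts with vehicle and 102, 30 and 78 with SN-011, the only positive fold change of the 10 at 0.54 ± 0.62 (edgeR adjusted p = 0.618), and *Ighg1* had 208, 15 and 320 against 198, 45 and 183. Both overlapped. *Ighm* (-1.08 ± 0.51) and *Iglc2* (-1.36 ± 0.60) overlapped too, and *Mzb1* had 87, 164 and 228 counts with vehicle against 105, 38 and 89 (-1.06 ± 0.44, edgeR adjusted p = 0.188).

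The makeup of the stomach samples moved with these values. *Atp4a*, the acid pump of parietal cells, had 38681 to 63393 counts with vehicle and 18629 to 35007 with SN-011. The 5 gastric markers summed to 12011 to 48256 CPM with vehicle and 3554 to 15077 CPM with SN-011, which overlapped, and the receptor *Pigr* had 3976, 6839 and 5726 against 1967, 3037 and 2706 (log2 fold change -1.13 ± 0.32, edgeR adjusted p = 0.0977). The 4 squamous keratins *Krt13*, *Krt4*, *Krt5* and *Krt14*, which mark the forestomach, summed to 85.5 to 199 CPM with vehicle and 359 to 1166 CPM with SN-011, with none at 0. *Atp4a* and *Pigr* were thus lower and the squamous sum higher in every SN-011 sample, and their part in the lower immunoglobulin RNA was not tested. Counts of *Igha* per count of *Atp4a* were 1.08, 1.24 and 0.706 with vehicle and 1.43, 0.485 and 1.27 with SN-011, which overlapped.

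In the heart, all 10 members had a negative log2 fold change, with a median of -0.73 beside -0.01 over all 16151 genes, and the groups overlapped for each of the 10 (13.4% of all genes had every SN-011 sample below every vehicle sample). At an adjusted p under 0.05 the count was 0 by the quasi-likelihood test (0.848% of all genes), 0 with DESeq2 (8.1%) and 2 with edgeR's exact test, *Ighg1* and *Ighg2c* (5.68%). At an unadjusted p under 0.05 it was 3, *Ighg1*, *Ighg2c* and *Jchain* (22.4%).

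*Ighg1*, *Ighg2c* and *Ighg2b* had the largest differences in the heart, and *Ighg3*, also an IgG gene, the smallest (-0.17 ± 1.15, edgeR adjusted p = 0.950). *Ighg2c* had 1950, 319 and 1096 counts with vehicle and 111, 344 and 257 with SN-011, or 56.0 ± 38.2 and 13.8 ± 6.82 CPM. Only vehicle replicate 2 lay among the SN-011 values, and the log2 fold change was -2.01 ± 0.54 (edgeR adjusted p = 0.0936, range over the alternatives 2.52e-10 to 0.585). *Ighg1* had 620, 12 and 207 counts with vehicle and 8, 13 and 51 with SN-011, with a log2 fold change of -3.30 ± 1.07 (edgeR adjusted p = 0.130). *Ighg2b* had 877, 109 and 637 against 95, 302 and 222 (-1.15 ± 0.59, edgeR adjusted p = 0.282). Vehicle replicate 1, the female sample, held the highest value of all 3 genes and vehicle replicate 2 a low one. Without vehicle replicate 2 all 3 were called, with edgeR adjusted p of 0.0294 for *Ighg1*, 0.0473 for *Ighg2b* and 0.0265 for *Ighg2c*. The sample left out lay among the SN-011 values for all 3, and the share of all genes called in that fit is not given here. No other omission of a single heart sample called any of them. Over these omissions the log2 fold change ran from -1.61 to -0.67 for *Ighg2b* and from -2.41 to -1.41 for *Ighg2c*. Without vehicle replicate 1, the log2 fold change of *Ighg1* was -1.98, the smallest of its values with 1 sample left out.

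*Igha* had 3253, 4268 and 6507 counts in vehicle hearts and 2717, 3559 and 2956 with SN-011 (log2 fold change -0.44 ± 0.23, edgeR adjusted p = 0.294). *Jchain* had 971, 626 and 1664 against 475, 773 and 341 (-0.83 ± 0.33, edgeR adjusted p = 0.188) and *Igkc* 5062, 2895 and 9605 against 2344, 5042 and 2126 (-0.67 ± 0.40, edgeR adjusted p = 0.362). *Ighm* had 2017, 735 and 10484 counts against 1248, 4757 and 294, a spread within both groups larger than the difference between them. Its fold change of -0.80 ± 0.99 rested on vehicle replicate 3 and was 0.78 without it, as *Iglc2* went from -0.51 to 0.86, *Mzb1* from -0.61 to 0.38 and *Ighg3* from -0.17 to 1.43.

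In the muscle, 7 members passed the filter on low counts, all but *Ighg1*, *Ighg2b* and *Ighg3*. None was called by the quasi-likelihood test (0.0141% of all genes), DESeq2 (5.61%) or the exact test (3.37%), and 0 had an unadjusted p under 0.05 (14.8%). *Igha* had 305, 626 and 406 counts with vehicle and 312, 566 and 486 with SN-011 (log2 fold change 0.38 ± 0.40), *Igkc* 390, 401 and 277 against 201, 394 and 287 (0.10 ± 0.38), and *Ighm* was at 0.28 ± 0.36. *Jchain* had 76, 138 and 86 counts with vehicle and 31, 0 and 63 with SN-011, and *Iglc2* 29, 12 and 17 against 3, 0 and 10. These 2 of the 7 tested members lay apart (21.6% of all genes tested did in this direction), and the zeros are of SN-011 replicate 2, in which *Mzb1* was also at 0. Without that sample *Igha* was at -0.0033 and *Igkc* at -0.38.

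In the tongue, 6 members were tested, all but *Ighg1*, *Ighg2b*, *Ighg3* and *Iglc2*, and none was called by the quasi-likelihood test (0.0%), DESeq2 (2.39%) or the exact test (1.53%). *Ighm* was the 1 member with an unadjusted p under 0.05 (12.5% of all genes). It had 394, 274 and 195 counts with vehicle and 174, 154 and 147 with SN-011, all lower, at a log2 fold change of -0.83 ± 0.24 (edgeR adjusted p = 0.297). *Ighg2b*, not tested, had 17, 6 and 7 counts against 2, 0 and 0, so that 1 of the 6 tested members lay below all vehicle samples (7.92% of all genes tested) and 1 that was not tested. *Igha* had 67, 384 and 87 counts against 99, 108 and 123 (-0.73 ± 0.67). Without vehicle replicate 2, the sample with 3991 counts of *Atp4a*, its fold change was 0.56.

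**Figure D3:**
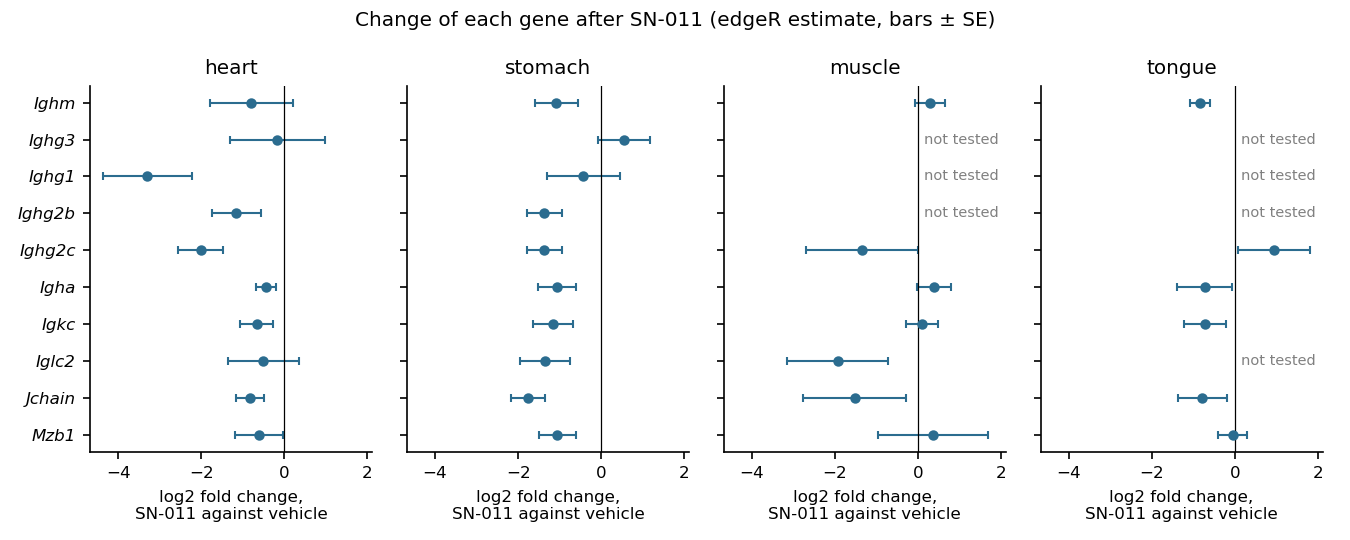
Log2 fold change of SN-011 against vehicle for each of the 10 genes in 4 tissues, as edgeR estimates with bars of ± 1 SE; genes under the filter on low counts are marked as not tested. Stomach estimates lie between -1.76 and 0.54 and heart estimates between -3.30 and -0.17.

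Whether the effect of SN-011 differed between tissues was tested as an interaction in a fit of all 24 samples. Over 6 pairs of tissues and 10 members, 60 tests, 0 passed an adjusted p of 0.05 by edgeR (1.64% of all gene tests did) and 0 with DESeq2 (4.63%), and 1 had an unadjusted p under 0.05 (12.3%). The lowest edgeR adjusted p was 0.236, for *Igha* between stomach and muscle, where the log2 fold changes differed by -1.36 ± 0.69. The effect of SN-011 on these genes was therefore not shown to differ between any 2 tissues.

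Gastric RNA was found in other tissues beside IgA RNA, and its part in their IgA values was not tested. Counts of *Atp4a* in the heart were 32, 3785 and 264 with vehicle and 6, 5 and 36 with SN-011, in the tongue 15, 3991 and 1274 against 23, 2 and 31, and in the muscle 19, 885 and 257 against 36, 0 and 32. Heart *Igha* was at 262 and 312 CPM in vehicle replicates 2 and 3, which held the most *Atp4a*, and at 160 CPM in vehicle replicate 1 and 163, 209 and 166 CPM in the SN-011 hearts. These last 4 had 2717 to 3559 counts of *Igha* beside 5 to 36 of *Atp4a*, or 82.1 to 712 per count of *Atp4a*, against 0.485 to 1.43 in the stomach. In heart vehicle replicate 2 the ratio was 1.13, within the stomach's range, and in heart vehicle replicate 3 it was 24.6, above that range. In tongue vehicle replicates 2 and 3 it was 0.0962 and 0.0683, below it. *Igha* in muscle was 0.896% to 6.90%, and in tongue 0.110% to 0.645%, of the CPM in the stomach sample of the same treatment and number.

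**Figure D4:**
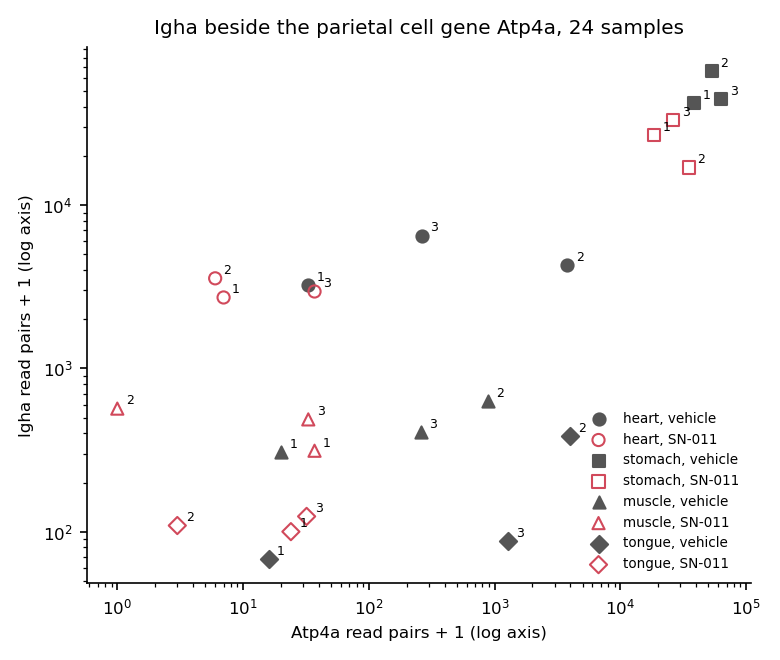
Read pairs of *Igha* against read pairs of the parietal cell gene *Atp4a* (both plus 1, log axes) in the 24 samples, numbered by replicate, with filled symbols for vehicle and open symbols for SN-011. Stomach samples lie at the top right, and hearts hold 2717 to 6507 counts of *Igha* over an *Atp4a* range of 5 to 3785.

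The lineage around these genes was followed with lists of B cell and plasma cell genes. Of 10 plasma cell identity genes, none was called in any tissue after SN-011. All 3 SN-011 samples lay below all vehicle samples for 3 heart, 4 stomach, 5 muscle and 1 tongue genes of the list, where 13.4%, 16.1%, 21.6% and 7.92% of all genes tested did, and above them for 1 gene in the tongue. Of the genes that lay below, *Tnfrsf17* in the heart and *Derl3* in the muscle had too few counts to be tested. The medians of those tested were -0.81, -0.65, -0.84 and -0.46, beside -0.01, 0.00, -0.08 and -0.01 over all genes. An unadjusted p under 0.05 was found for 4, 3, 1 and 1 of them, all lower (22.4%, 24.6%, 14.8% and 12.5% of all genes). *Prdm1* encodes Blimp-1, the repressor that drives plasma cell differentiation. It had 149, 88 and 184 counts in vehicle hearts against 62, 48 and 84 with SN-011, and 171, 165 and 217 in vehicle stomachs against 53, 83 and 84. Both tissues had every SN-011 sample lower, with log2 fold changes of -0.93 ± 0.28 (edgeR adjusted p = 0.113) and -1.37 ± 0.36 (edgeR adjusted p = 0.0898), and the muscle estimate was -1.35 ± 1.20 and the tongue estimate -1.73 ± 0.67 (edgeR adjusted p = 0.378). *Prdm1* is also read in epithelia and other lymphocytes.

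*Sdc1*, the plasma cell surface proteoglycan CD138, which epithelia also carry, lay lower in every SN-011 sample of the heart (-0.92 ± 0.28, edgeR adjusted p = 0.119), the stomach (-0.79 ± 0.30, edgeR adjusted p = 0.163) and the muscle (-1.73 ± 1.19, edgeR adjusted p = 0.564), and overlapped in the tongue (-0.43 ± 0.31). *Tnfrsf17*, the survival receptor BCMA, had 36, 41 and 20 counts in vehicle stomachs and 7, 6 and 14 with SN-011 (-1.95 ± 0.69, edgeR adjusted p = 0.141), and at most 14 counts in a sample of another tissue. *Irf4*, which acts beside Blimp-1, had estimates of -0.86 ± 0.54 (heart), -1.14 ± 0.52 (stomach) and -0.12 ± 0.29 (tongue). In the muscle it was at 2.08 ± 1.43 (edgeR adjusted p = 0.563), with 95, 41 and 44 counts against 321, 0 and 344. *Pou2af1*, a coactivator of immunoglobulin promoters, had -0.17 ± 1.05 (heart), -0.51 ± 0.32 (stomach), -2.98 ± 1.22 (muscle, edgeR adjusted p = 0.334) and -1.85 ± 1.10 (tongue). Positive estimates were found for 1 of 9 tested list genes (heart), 2 of 10 (stomach), 2 of 8 (muscle) and 1 of 9 (tongue).

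Of 10 genes of the secretory machinery, which other secretory cells share, *Txndc5* fell in the heart, the 1 gene called there (0.848% of all genes tested were). This disulfide isomerase of the endoplasmic reticulum had 2147, 1442 and 2096 counts with vehicle and 1040, 1124 and 1152 with SN-011, or 98.2 ± 8.70 and 64.3 ± 1.95 CPM. All SN-011 hearts lay lower, with a log2 fold change of -0.60 ± 0.11 (edgeR adjusted p = 0.0444). The call was lost when any 1 sample other than vehicle replicate 2 was left out, with edgeR adjusted p up to 0.227, and in the joint fit of all tissues (edgeR adjusted p = 0.874) and with the replicate number as a block (edgeR adjusted p = 0.0536). In the tongue it was at -0.39 ± 0.14 (edgeR adjusted p = 0.365) and in the muscle at -0.70 ± 0.49, with every SN-011 sample lower in both, and at -0.45 ± 0.35 in the stomach, where the groups overlapped. *Xbp1*, the transcription factor of the secretory programme, had estimates of -0.06 ± 0.10 (heart), -0.54 ± 0.31 (stomach), 0.36 ± 0.15 (muscle) and -0.83 ± 0.28 (tongue), none called. The 9 other genes of this list were not called in any tissue.

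B cell identity genes, 14 in the list, were not called in any tissue (0.848%, 0.0%, 0.0141% and 0.0% of all genes were, in heart, stomach, muscle and tongue). The medians were -1.27 (heart), -0.34 (stomach), -1.70 (muscle) and -1.24 (tongue), and 1, 3, 1 and 4 had an unadjusted p under 0.05, all lower (22.4%, 24.6%, 14.8% and 12.5% of all genes). In the muscle 9 of the 14 lay below all vehicle samples (21.6%), in the tongue 4 (7.92%), and in the heart and stomach none (13.4% and 16.1%). These shares are over tested genes, but the counts include genes with too few counts to be tested. Those were *Ms4a1*, *Cr2*, *Fcer2a* and *Fcrla* in the muscle and *Fcer2a* in the tongue. In the stomach *Cd79a* had 460, 1052 and 515 counts with vehicle and 965, 537 and 570 with SN-011 (log2 fold change -0.03 ± 0.36, edgeR adjusted p = 0.965), while *Ms4a1*, which encodes CD20, was at -1.55 ± 0.64 (edgeR adjusted p = 0.186). In the heart *Ms4a1* (-1.38 ± 1.23) and *Cd79a* (-1.15 ± 1.22) followed vehicle replicate 3, which had 1083 and 1922 counts of them, and without it the estimates were 0.69 and 1.28. In the muscle *Cd79a*, with the counts given above, had the lowest estimate of the B cell genes named here (-4.00 ± 1.15, edgeR adjusted p = 0.224).

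**Figure D5:**
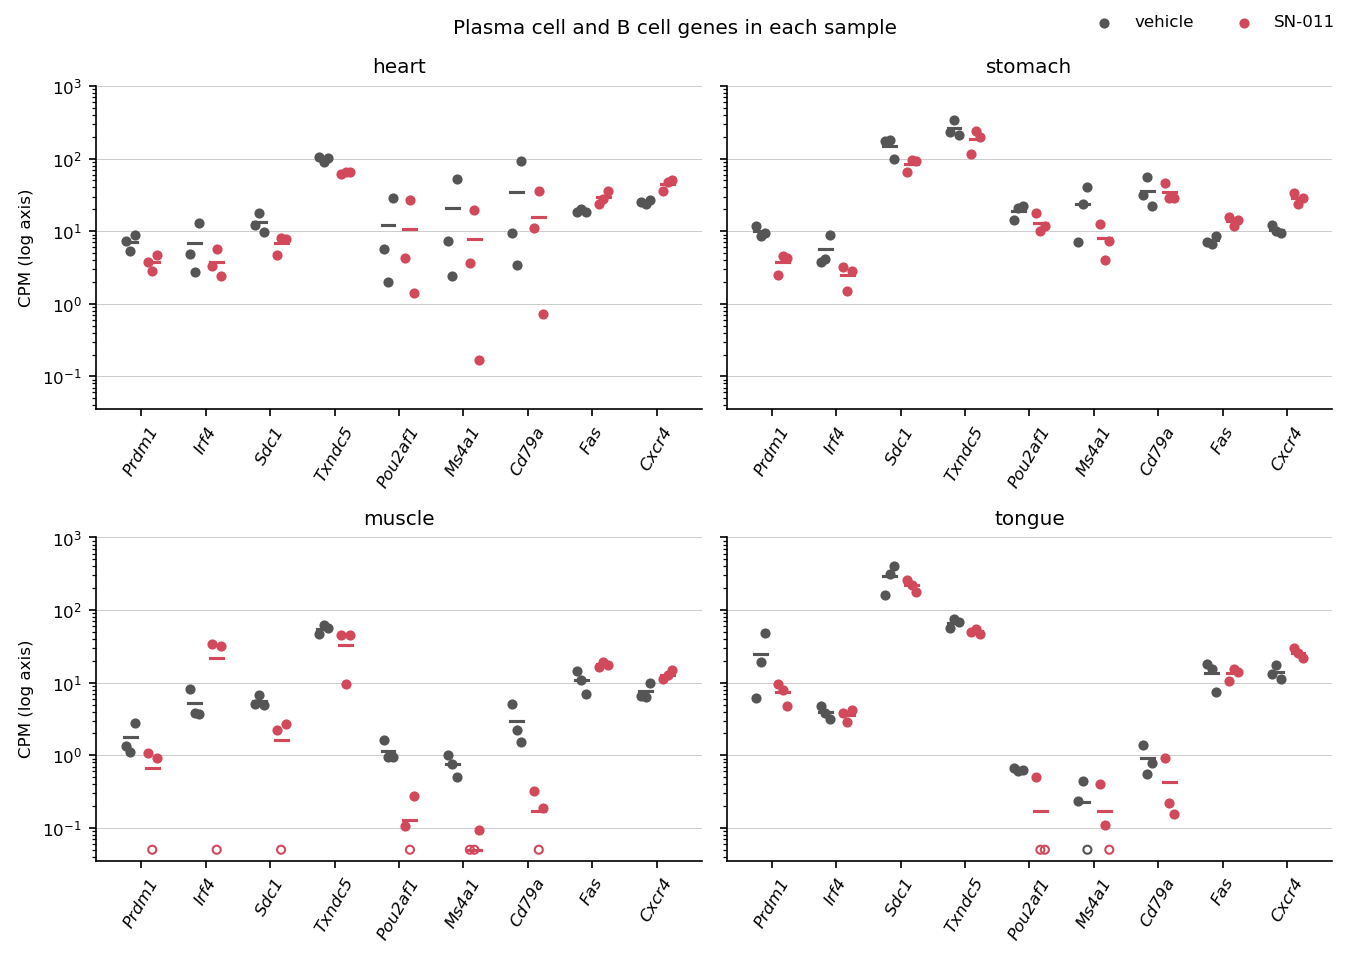
CPM on a log axis of 9 plasma cell, B cell and homing genes in the vehicle (grey) and SN-011 (red) samples of each tissue, with a bar at each mean and open circles for samples under 0.05 CPM. *Cxcr4* lies higher in every SN-011 sample of all 4 tissues, and *Prdm1* lower in the heart, stomach and muscle.

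Class switch and germinal centre genes, 7 in the list, were followed as well. *Fas*, a death receptor of germinal centre B cells and of many other cells, was higher in every SN-011 sample of the heart (0.62 ± 0.16, edgeR adjusted p = 0.0931), the stomach (0.91 ± 0.29, edgeR adjusted p = 0.116) and the muscle (0.83 ± 0.35, edgeR adjusted p = 0.339), and overlapped in the tongue (-0.04 ± 0.33). It was named because its groups lay apart in 3 tissues. The share of all genes that lay above in this way is not given here. None of the 7 genes was called (0.848%, 0.0%, 0.0141% and 0.0% of all genes were, in heart, stomach, muscle and tongue). At an unadjusted p under 0.05 the stomach and tongue each had 2 higher (24.6% and 12.5% of all genes in either direction) and the heart 1 higher and 1 lower (22.4%). *Ighe*, named here after its values were seen, had 0, 1 and 1 counts in vehicle stomachs and 15, 4 and 10 with SN-011, too few to be tested, and 0 in every heart and muscle sample.

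Among 15 survival and homing signals, *Cxcr4* rose in the heart, the 1 gene called there (0.848% of all genes tested were). This receptor for the chemokine CXCL12 holds plasma cells in bone marrow and is also found on T cells and myeloid cells. It had 516, 382 and 560 counts in vehicle hearts and 592, 798 and 907 with SN-011, or 25.2 ± 1.71 and 44.4 ± 8.04 CPM, a log2 fold change of 0.82 ± 0.15 (edgeR adjusted p = 0.0481). The call was lost when any 1 sample other than vehicle replicate 2 was left out (edgeR adjusted p up to 0.228), with library size in place of TMM normalization (edgeR adjusted p = 0.0717) and in the joint fit (edgeR adjusted p = 0.366). The stomach estimate was 1.49 ± 0.25 (edgeR adjusted p = 0.0618), that of muscle 0.87 ± 0.33 and that of tongue 0.87 ± 0.20. Every SN-011 sample lay above every vehicle sample in all 4 tissues. List genes that lay apart in this way in 3 or more tissues were named for it, so it is no support. The share of all genes that lay above in this way is not given here. *Tnfsf13b*, the B cell survival factor BAFF, overlapped in all 4, with 307 to 500 and 306 to 408 counts in vehicle and SN-011 hearts.

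Of 10 genes of antibody transport and Fc receptors, none was called in any tissue (0.848%, 0.0%, 0.0141% and 0.0% of all genes were, in heart, stomach, muscle and tongue). Outside the stomach, *Pigr* had 2, 247 and 39 counts in vehicle hearts and 2 or 3 in each SN-011 heart, and 11, 306 and 208 in vehicle tongues against 11, 94 and 10, and 17, 60 and 33 in vehicle muscle against 14, 12 and 11. The vehicle samples with the most *Atp4a* had the most *Pigr* in each of these tissues, but the tongue sample with 94 counts of *Pigr* had 2 of *Atp4a*.

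The genes most like the 10 members across samples were of B cells. Over 24 samples, after each tissue's mean was taken away, the mean log2 CPM of the members was compared with 15809 genes of at least 1 CPM. Outside the immunoglobulin segments, the highest Pearson correlations included those of *H2-DMb2* (r = 0.89), *Cd22* (0.88), *Bank1* (0.85), *Ms4a1* (0.85), *B3gnt5* (0.84), *H2-Ob* (0.83), *Cd55* (0.83), *Hvcn1* (0.81) and *H2-Oa* (0.81). *H2-DMb2*, *H2-Oa* and *H2-Ob* act in loading peptides on MHC class II, and *Cd22* and *Bank1* tune B cell receptor signals. The samples share libraries and depth with the members, so this is a description, and the values within a tissue ranged from 0.83 to 0.99 in the heart and from 0.17 to 0.81 in the tongue.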

How the data were processed

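Samples were grouped by tissue and treatment as labelled, 3 in each of 8 groups. The labels do not say whether tissues of one number came from one mouse, and p-values measure the spread between these samples. The authors deposited raw counts of read pairs per gene, not normalized, after mapping with HISAT2 to mm10. The labels name HTSeq as the counter and the methods featureCounts, with a strand-specific library, so the counter is uncertain. Symbols, exon lengths and sequences came from GENCODE M21 (GRCm38), in which 54409 identifiers were found on the reference chromosomes.

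CPM used TMM library sizes of all 24 samples. Tests were edgeR 4.0.16 quasi-likelihood fits (R 4.3.3) of 1 tissue, of the 12 vehicle samples, or of all 24 for differences between tissues, with filterByExpr (minimum count 10, minimum total 15), a prior count of 0.125, Benjamini-Hochberg adjustment and a threshold of 0.05. The fits were tested on simulated data. Alternatives were DESeq2 1.42.0, its size factors, library size, no filter, edgeR's exact test, a joint fit, a replicate block, secreted transcript lengths for shares and leaving out each sample. Likeness used log2(CPM + 0.5). Members, lists and tests were chosen with earlier results of these data known. List genes were named where called, where groups lay apart the same way in 3 or more tissues, or as fixed lineage genes. Some genes that the rule would name are not reported here, and list counts are over whole lists.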

Additional observations from a re-analysis of the deposited data

How the results depend on the processing

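Normalization by DESeq2 size factors left the number of members called as it was in every comparison. After SN-011 the heart count, 0, was 5 without a filter on low counts (*Jchain*, *Igkc*, *Ighg2c*, *Ighg2b* and *Ighg1*). Of all 30288 genes then tested, 700 were called higher and 1188 lower. The heart count was 2 with edgeR's exact test (5.68% of all genes) and 0 to 3 with 1 sample left out, the 3 without vehicle replicate 2. Shares of all genes called with 1 sample left out are not given here. The stomach count, 0, was 3 without the filter, where 864 of 27444 genes were called higher and 504 lower. It was 5 with DESeq2 (14.0% of all genes) and 3 with the exact test (10.8%). *Jchain*, *Ighg2b* and *Ighg2c* were called in all 3 settings. Whichever sample was left out, the stomach count was 0. The count for tongue against muscle was 3 and not 5 with library size alone, where 1251 of all genes and not 3899 were called lower. The mean *Igha* share in the SN-011 tongue was 37.8% and not 29.5% without division by length. With secreted transcript lengths, an alternative added after the data were seen, it was 45.2%, that of the SN-011 stomach 93.7% and not 87.0%, and that of the vehicle muscle 30.9% and not 19.3%. The cause of these changes was not tested. A replicate block moved no count of members called (0 in each SN-011 comparison). Same-numbered vehicle and SN-011 samples had mean correlations of deviations of -0.02, 0.06, 0.03 and -0.25 in heart, stomach, muscle and tongue, so the numbers were not taken as pairs. Between tissues, same-numbered vehicle samples had a mean of 0.25, with 13 of 18 over 0.1, a hint from the data only.

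Some estimates changed sign. In the stomach *Ighg1* was 0.059 with the replicate block and *Cd79a* 0.030 with it and 0.19 with library size alone. In the muscle *Igkc* was -0.16 with library size alone and -0.032 in the joint fit, and *Mzb1* -0.36 with the block. In the tongue *Mzb1* was 0.029 with library size alone, and *Fas* 0.023 with it and 0.033 with the block. With 1 sample left out, heart estimates ran from -2.23 to 0.78 for *Ighm*, -2.68 to 1.43 for *Ighg3*, -1.06 to 0.38 for *Mzb1*, -2.01 to 0.86 for *Iglc2*, -3.45 to 0.69 for *Ms4a1*, -2.57 to 1.28 for *Cd79a* and -2.10 to 1.49 for *Pou2af1*, each highest without vehicle replicate 3. Stomach estimates ran from -0.30 to 0.39 for *Cd79a*, muscle estimates from -0.0033 to 0.76 for *Igha*, -0.38 to 0.34 for *Igkc* and -0.14 to 0.95 for *Mzb1*, and tongue estimates from -1.14 to 0.56 for *Igha*, -1.14 to 0.011 for *Jchain*, -0.16 to 0.11 for *Mzb1*, -0.34 to 0.23 for *Fas* and -0.25 to 0.060 for *Irf4*. Leaving out the 4 vehicle samples from females was chosen after the data were seen. Depth limits the IgG genes of muscle and tongue, with 0 to 68 counts a sample.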
